A study of Mus musculus with 24 samples.

Results

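Translation initiation and elongation factors are the proteins that start protein synthesis on an mRNA and then carry the ribosome along it. Their mRNAs were followed in RNA of extracellular vesicles from mouse plasma. The genes were taken by name: every gene of the deposited table whose symbol begins with Eif1 to Eif6, Eef1 or Eef2, except the antiviral kinase gene Eif2ak2. This gave 64 of the 21960 genes of the table, all of them protein coding. By role, 43 were initiation factors proper and 6 were core elongation factors. A pair of genes encoded eIF5A, named as an initiation factor but active in elongation. The remaining 13 were kinases, inhibitors, modifying enzymes and factors named Eif or Eef with other work.

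In initiation, eIF2 brings the initiator tRNA to the small ribosomal subunit, eIF3, eIF1 and eIF5 help it find and recognise the start codon, and the eIF4 factors recruit the capped mRNA. In elongation, eEF1A delivers each aminoacyl-tRNA, the eEF1B subunits recharge eEF1A with GTP, and eEF2 moves the ribosome on by a codon. mRNAs of elongation factors and ribosomal proteins carry a terminal oligopyrimidine tract that ties their translation to growth signals, and they are abundant in most cells, whereas most initiation factor mRNAs are less abundant.

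The samples came from male C57BL/6J mice in 4 groups of 6, 1 library per animal. A group had its bile duct ligated, which blocks bile flow and causes cholestasis and liver fibrosis, or had a sham operation, and was sampled at day 8 or at day 15. The mice carried no other allele or agent that the labels name, and their ages were not stated in the labels. Vesicles were precipitated from 250 µl of plasma, and RNA was sequenced as stranded libraries without removal of ribosomal RNA and without poly(A) selection. Precipitation from plasma also collects RNA that is not inside vesicles. The tissue label reads liver and the site label extracellular vesicles.

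Libraries held between 101733 and 937963 counts. At day 8 the libraries numbered 4 to 6 were deeper (535737 to 937963) than those numbered 1 to 3 (101733 to 349386) in both groups, and held more platelet marker counts (0.916% ± 0.375 against 0.223% ± 0.110 in the sham mice, SD, n = 3 each). Counts assigned to the mitochondrial synthetase gene Lars2 made up 47.1% ± 4.19 of all counts (SD, n = 24), and the origin of these reads was not tested. Hepatocyte markers were scarce in sham mice despite the tissue label: the 20 genes held 0.00954% ± 0.00451 of the counts in sham mice at day 8 and 0.0131% ± 0.00360 at day 15. After ligation they held 0.0445% to 0.0988% in 5 libraries of day 8 and 0.439% in ligated replicate 3, and 0.332%, 0.867% and 2.52% at day 15 (lowest, median, highest), and 13 and 16 of the 16 tested rose. Fgb had 0 counts in the day 8 sham group, and Apoc3, Cyp3a11, Fgg, Mat1a and Serpina3k had 0 counts in the day 15 sham group. Erythroid markers, 16 genes, held 7.01% ± 0.969 and 11.1% ± 3.42 in sham and ligated mice at day 8 and 7.87% ± 2.59 and 6.47% ± 2.13 at day 15 (SD, n = 6 each). Neutrophil markers, 10 genes all with counts, held 0.0553% ± 0.0465 and 0.122% ± 0.0501 at day 8 and 0.163% ± 0.155 and 0.109% ± 0.0419 at day 15, and 3 of 7 tested rose at day 8. Of 11 monocyte and macrophage markers 5 were tested, and 2 rose at day 8 (median 0.74) and 1 at day 15 (median 0.22), with shares from 0.0273% to 0.120% over the 24 libraries. A marker could enter the tests, here and below, through a single group where it was high. The numbers of tested markers that rose or fell are therefore only a description. In vesicle RNA, fewer vesicles from a cell type and less RNA of a gene per vesicle cannot be told apart.

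The elongation factors were by far the more abundant class. Levels were compared as normalised CPM per kilobase of exon, where CPM is the count scaled to a common library size with the trimmed mean of M-values (TMM). Eef1a1, which encodes the main eEF1A (GRCm38 chromosome 9, 78478449 to 78489151, minus strand), stood at 3243 ± 401 CPM per kilobase (SD, n = 24). Eef2, the only eEF2 gene (chromosome 10, 81176631 to 81182498, plus strand), stood at 755.0 ± 87.0 CPM per kilobase. These were the highest of the 64 levels. Eef1g, the gamma subunit of eEF1B, followed at 177 ± 31.5 CPM per kilobase.

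The first initiation factor in the order was the eIF3 subunit gene Eif3h at 154 ± 19.0 CPM per kilobase, beside Eef1b2, the exchange subunit of eEF1B, at 149 ± 24.8. Eif1, which guards the choice of start codon, stood at 144 ± 28.3 CPM per kilobase. These 3 levels lay within each other's spread, and their order changed when the longest coding transcript replaced the exon length. Eif3f stood at 99.8 ± 22.1, Eif5a at 80.2 ± 15.3, and Eif4b, a helper of the eIF4A helicase, at 73.9 ± 12.8 CPM per kilobase. Of the core elongation genes, 2 were low: Eef1d, the delta subunit of eEF1B, at 14.9 ± 3.05, and Eef1a2, the eEF1A of muscle and neurons, at 2.39 ± 2.60 CPM per kilobase.

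**Figure D1:**
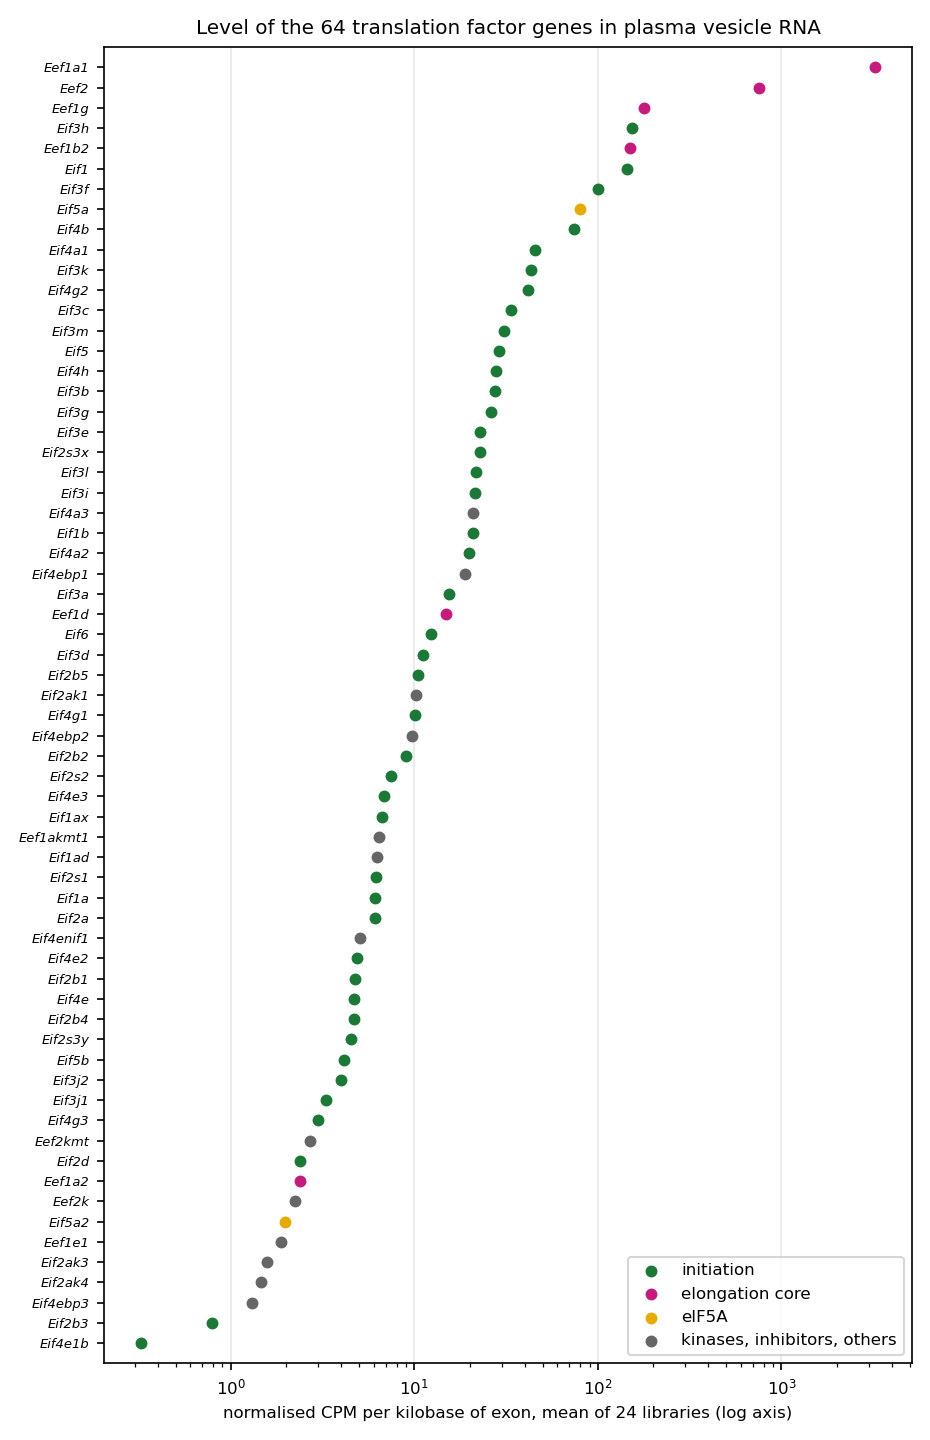
Each point is the mean level of 1 of the 64 genes over 24 libraries, in normalised CPM per kilobase of exon on a log axis, coloured by class. The points run from 0.323 (Eif4e1b) to 3243 (Eef1a1), and the 3 highest are elongation factors.

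The following genes encode factors that recruit the mRNA, bind the initiator tRNA or keep the subunits apart. The helicase gene Eif4a1 stood at 45.3 ± 9.23 CPM per kilobase, its relative Eif4a2 at 19.8 ± 5.41, the scaffold gene Eif4g1 at 10.0 ± 3.01 and its relative Eif4g2, which works without the cap, at 41.8 ± 5.11. With the longest coding transcript as length the order of the relatives changed, to 111 for Eif4a1, 86.3 for Eif4a2 and 53.1 for Eif4g2. The cap-binding protein gene Eif4e stood at 4.72 ± 1.36 CPM per kilobase, below the genes of its inhibitors Eif4ebp1 (18.9 ± 5.35) and Eif4ebp2 (9.67 ± 3.03). The eIF2 alpha subunit gene Eif2s1 stood at 6.14 ± 2.75, the large eIF3 subunit gene Eif3a at 15.5 ± 3.36, and Eif6, which keeps the ribosomal subunits apart, at 12.4 ± 3.93 CPM per kilobase (SD, n = 24 each).

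Of the 64 genes, 44 passed the filter on low counts and were tested, and 20 did not. A gene could pass through a single group. The 44 comprised 33 of the 43 initiation factors, 5 of the 6 core elongation factors, 1 of the 2 eIF5A genes and 5 of the other 13. Below the filter lay 4 of the 5 subunits of eIF2B, the exchange factor that recharges eIF2: Eif2b2 with 157, Eif2b1 with 108, Eif2b4 with 101 and Eif2b3 with 51 counts over the 24 libraries. The other initiation factors there were Eif3j1 (164 counts), Eif2s3y (163), Eif2d (152), Eif4e3 (145), Eif3j2 (87) and Eif4e1b (5). Below it also lay the eIF2 kinase genes Eif2ak4 (101) and Eif2ak3 (81), Eef2k, the kinase that turns eEF2 off (150), Eif1ad (149), Eif5a2 (106), Eef2kmt (77), Eef1akmt1 (56), Eef1e1 (52), Eef1a2 (39) and the inhibitor gene Eif4ebp3 (8). The 8 counts of Eif4ebp3 fell in the ligated groups, but 7 of them were in 1 library, ligated replicate 5 of day 15, and without it 1 count was left. The 5 counts of Eif4e1b also fell in the ligated groups, over 3 libraries at day 15 and 1 at day 8.

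Some of these genes have near-identical copies, so how the reads were divided bears on their level. The 75-base windows of all protein-coding transcripts of each gene were pooled. The share that also occurs in another gene was 87.4% for Eif3j2 (all with Eif3j1), 37.7% for Eif3j1, 64.2% for Eif4ebp3, 62.9% for Eif4a1, 56.5% for Eef1g (53.6% with the pseudogene Gm4366), 36.8% for Eef1a1 and 35.0% for Eif2s3x. The values of these genes are uncertain, and how their reads were divided was not tested. The share was 0.122% for Eif5, 0 for Eif2ak1, 7.89% for Eif3e and 12.4% for Eif4a3.

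The elongation core held 1.15% ± 0.109 of all counts in sham mice at day 8, 0.886% ± 0.0986 in ligated mice at day 8, 1.13% ± 0.134 in sham mice at day 15 and 1.11% ± 0.0631 in ligated mice at day 15 (SD, n = 6 each). The initiation factors held 0.392% ± 0.0193, 0.328% ± 0.0504, 0.373% ± 0.0286 and 0.353% ± 0.0198 in the same order. Both shares had their lowest mean in the ligated mice at day 8, and so did the 84 ribosomal protein genes (4.60% ± 0.414, against 5.97% ± 0.471 in the sham mice). The erythroid share was highest in that group, and its part in the lower shares was not tested. The libraries of the day 8 groups overlapped in the elongation share, which spanned 0.739% to 1.05% in ligated mice and 0.948% to 1.24% in sham mice. For initiation factors they did not overlap, the highest ligated library lying at 0.363% and the lowest sham library at 0.367%. These shares are of unscaled counts, and without TMM the median fold change of all tested genes also lay below 0 at day 8. After TMM the median log2 fold change of the tested initiation factors was 0.05 at day 8. The separation is therefore not read as particular to the initiation factors.

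The ratio of elongation to initiation counts was 2.94 ± 0.236 and 2.73 ± 0.307 in sham and ligated mice at day 8, and 3.03 ± 0.261 and 3.14 ± 0.218 at day 15, with overlapping libraries at both days. Within the elongation core, Eef1a1 held 70.0% ± 1.70 of the counts and Eef1a1 with Eef2 91.8% ± 0.988 (SD, n = 24), so the sum is mostly a reading of these genes.

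**Figure D2:**
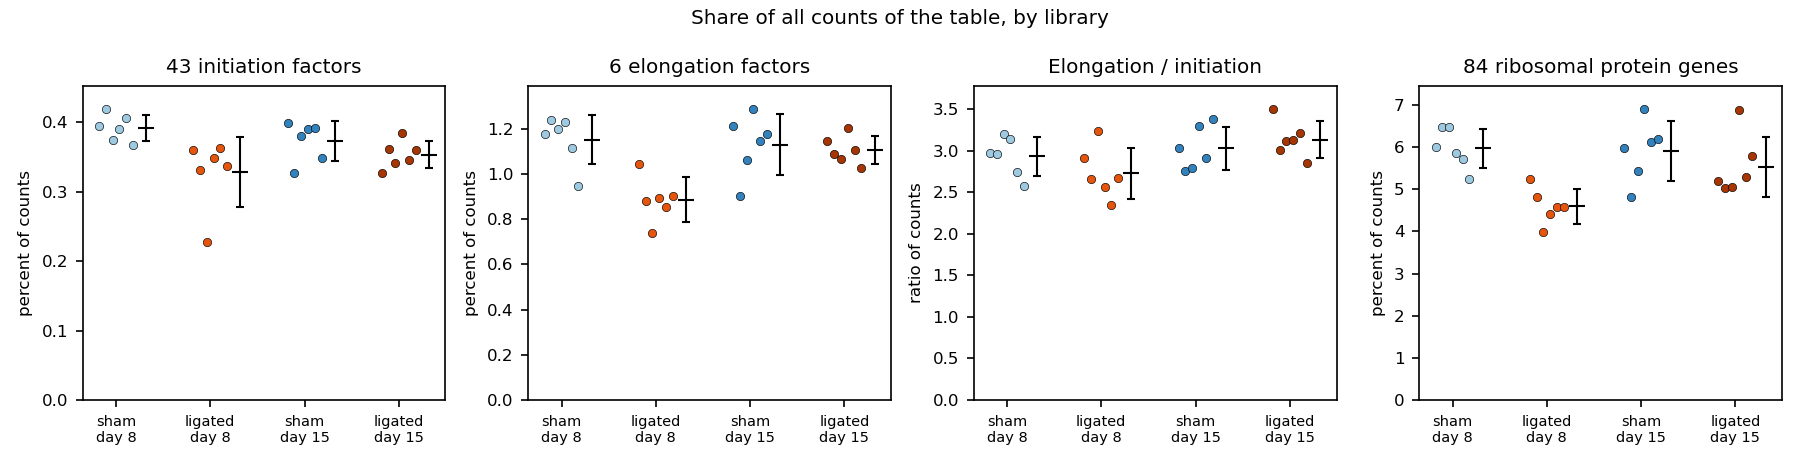
Points are single libraries and black marks the mean ± SD of 6 in each group. The panels give the percent of all counts held by 43 initiation factors, by 6 elongation factors and by 84 ribosomal protein genes, and the ratio of elongation to initiation counts. All 3 shares have their lowest group mean in ligated mice at day 8, while the group means of the ratio lie between 2.73 and 3.14.

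After ligation few members changed. At day 8, 1 of the 44 tested members passed an adjusted p of 0.05 (Eif5, higher), where 3.14% of all 4112 genes tested did, 2.77% higher and 0.365% lower. With the replicate number as a block, 2 passed (Eif5 and Eif2ak1, both higher), where 4.91% of all genes did (4.11% higher, 0.803% lower). At day 15, 3 passed (Eif5 and Eif3e higher, Eif4a3 lower), against 4.55% of all genes (3.48% higher, 1.07% lower). For the mean of both days, 4 passed (Eif5, Eif2ak1 and Eif3e higher, Eef1g lower), against 10.6% of all genes (7.1% higher, 3.5% lower). In each comparison the members' count was near or below the background, so it is no result about the members as a set.

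The tested initiation factors and elongation factors had log2 fold changes centred near 0. The median over 33 initiation factors was 0.05 at day 8 and 0.02 at day 15, with 20 and 18 of them above 0. The median over 5 elongation factors was -0.16 at day 8 and 0.16 at day 15, with 1 and 3 of them above 0. Over all genes tested it was 0.02 and -0.02. The 80 tested ribosomal protein genes had medians of -0.08 and 0.11, with 22 and 65 above 0 and none called. When library totals replaced TMM, the median of all genes shifted to -0.25 at day 8 and -0.22 at day 15, and the elongation medians to -0.48 and -0.05, so the values are read relative to the other genes.

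**Figure D3:**
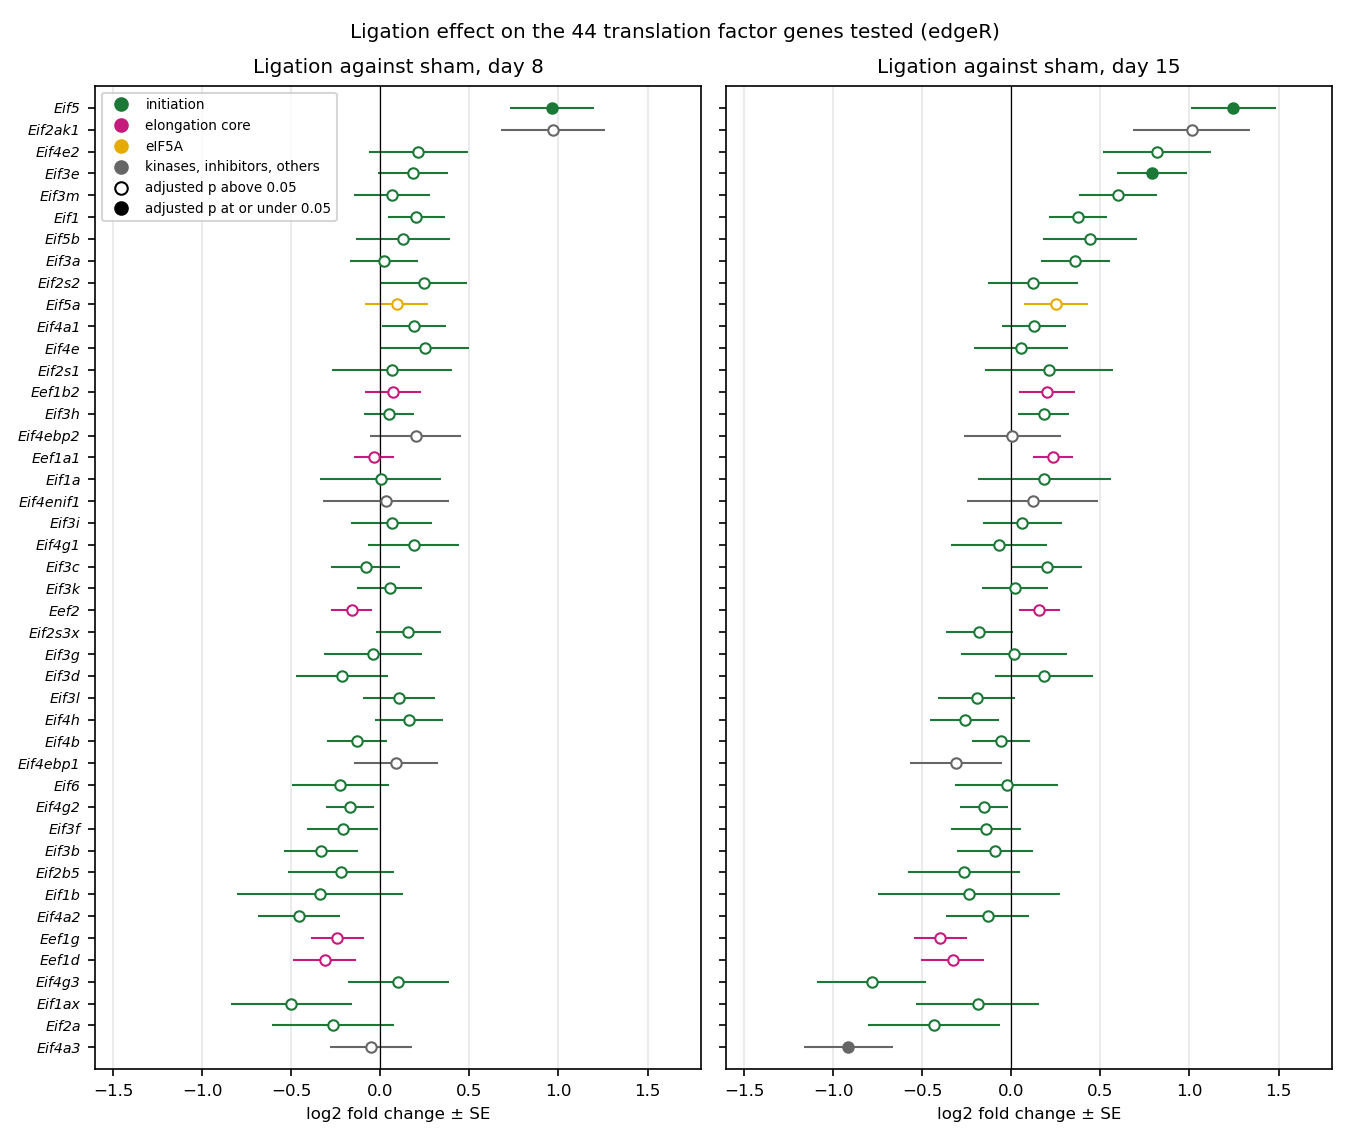
Log2 fold change of ligation against sham ± SE for the 44 tested members at day 8 (left) and day 15 (right), in the order of their mean over both days and coloured by class; filled points have an adjusted p at or under 0.05. Eif5 is filled at both days, and Eif3e and Eif4a3 at day 15 only.

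The start regions of 3 called members are shown, since Eif5 and Eif2ak1 were higher and Eif4a3 lower after ligation. The sequences are RefSeq's for GRCm38.p6, from 250 bases before the annotated start up to the first base that the gene model holds. Capitals mark the motifs found.
Eif5: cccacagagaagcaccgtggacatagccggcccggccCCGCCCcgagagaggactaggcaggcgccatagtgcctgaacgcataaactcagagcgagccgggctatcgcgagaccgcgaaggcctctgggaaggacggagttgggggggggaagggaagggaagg
Eif2ak1: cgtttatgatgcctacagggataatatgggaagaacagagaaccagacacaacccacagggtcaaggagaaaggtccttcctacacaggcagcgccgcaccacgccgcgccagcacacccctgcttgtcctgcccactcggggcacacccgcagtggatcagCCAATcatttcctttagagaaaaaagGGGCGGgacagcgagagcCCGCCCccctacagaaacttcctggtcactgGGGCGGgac
Eif4a3: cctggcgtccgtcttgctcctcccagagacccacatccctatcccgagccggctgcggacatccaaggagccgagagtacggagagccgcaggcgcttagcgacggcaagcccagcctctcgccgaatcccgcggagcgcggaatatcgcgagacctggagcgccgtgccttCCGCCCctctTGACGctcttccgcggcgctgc

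These stretches lie at chr12:111537851-111538015 (plus strand), chr5:143817542-143817787 (plus) and chr11:119300090-119300293 (minus). Both strands were searched for 8 motifs, and the share of 32851 RefSeq promoters that held each in the 250 bases before the start was taken as the background. The GC box, with the letters GGGCGG, was in 32.7% of these promoters and the CCAAT box in 33.8%. The letters TGACG, which are part of the cyclic AMP response element, were in 17.8%, and that element in full, spelled TGACGTCA, in 1.55%. The GATA site AGATAA was in 9.99% and the TATA box TATAAA in 12.4%. The E-box CACGTG was in 6.02% and the ETS site CCGGAAG in 6.91%. The Eif2ak1 stretch held 3 GC boxes, from bases -62, -44 and -13 of the start, and a CCAAT box from base -88. The Eif5 stretch held a GC box from base -213, and that of Eif4a3 a GC box from base -78 and TGACG from base -68. In the bases before the start that the printed stretches leave out, Eif5 held another GC box from base -29 and Eif4a3 another TGACG from base -42. No other motif of the search was in the 250 bases before these starts, and a match is only a match of letters. Of the 64 genes, 49 had an entry in the table, and Eif3e and Eef1g were not among them.

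Among the factors that scan for the start codon and join the subunits, Eif5 rose. eIF5 makes eIF2 hydrolyse its GTP when the start codon is found, and its gene lies on chromosome 12 (111538016 to 111546752, plus strand). At day 8 the sham mice had 80.1, 125 and 182 normalised CPM (lowest, median, highest) and the ligated mice 216, 236 and 303. Every ligated animal lay above every sham animal at day 8, which held for 1.97% of all genes in this direction. The log2 fold change was 0.96 (SE 0.24, adjusted p = 0.0209).

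At day 15 the sham mice had 72.4, 108 and 212 normalised CPM of Eif5 and the ligated mice 168, 318 and 358. Here 5 of 6 ligated animals lay above the highest sham animal, and 6 of 6 above the sham median. The log2 fold change was 1.25 (SE 0.24, adjusted p = 0.00116), and over both days it was 1.11 (SE 0.17, adjusted p = 4.36e-05). The day 8 call was lost without sham replicate 2, 3 or 4 or ligated replicate 2 (log2 fold change 0.93, 0.85, 0.86 and 0.90, adjusted p = 0.0559, 0.0588, 0.0756 and 0.0562). It was also lost with library totals (0.67, adjusted p = 0.0842), within the shallower libraries numbered 1 to 3 (1.13, adjusted p = 0.0532) and within the deeper ones numbered 4 to 6 (0.81, adjusted p = 0.163), 3 against 3 each, while the day 15 call and that over both days held in every refit without 1 library.

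The other 5 genes of this group, Eif1, Eif1a, Eif1ax, Eif1b and Eif5b, did not pass the test in any comparison. Eif1, the most abundant of them, ran from 201 to 310 normalised CPM in sham mice and from 270 to 380 in ligated mice at day 15, and these ranges overlapped. Its log2 fold change was 0.37 at day 15 (SE 0.16, adjusted p = 0.206) and 0.29 over both days (SE 0.12, adjusted p = 0.110).

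**Figure D4:**
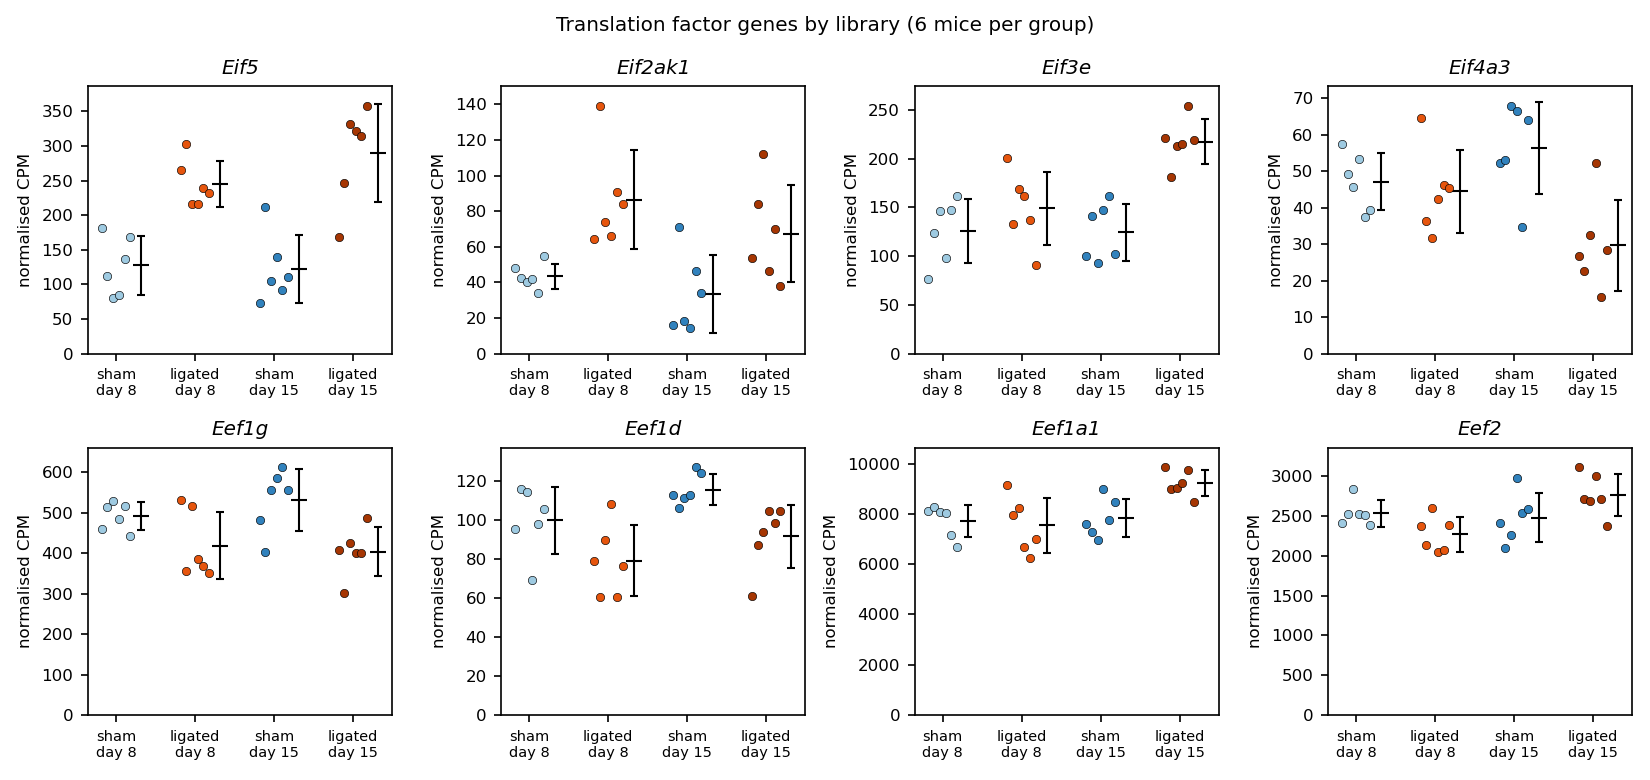
Normalised CPM of 8 members in single libraries, with the mean ± SD of 6 mice per group beside the points; the vertical axes start at 0. Eif5 and Eif2ak1 lie higher after ligation at both days, with group means of 127 and 245 for Eif5 at day 8, while the groups of Eif3e do not overlap at day 15.

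The genes of eIF2 and its alternatives showed no call. Of these 6 genes 4 were tested. Their log2 fold changes ran from -0.26 (Eif2a) to 0.25 (Eif2s2) at day 8, and from -0.43 (Eif2a) to 0.21 (Eif2s1) at day 15. Eif2a encodes an alternative factor, not a subunit of eIF2. Eif2b5, the catalytic eIF2B subunit, was the 1 eIF2B gene tested, at -0.22 and -0.27. The kinase gene Eif2ak1 differed from them. It encodes HRI, the heme-regulated kinase that stops initiation by phosphorylating eIF2 and is best known in red cell precursors (chromosome 5, 143817788 to 143904251, plus strand).

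At day 8 Eif2ak1 stood at 33.8, 42.0 and 54.7 normalised CPM in sham mice (lowest, median, highest) and at 64.6, 78.9 and 139 in ligated mice. The groups did not overlap, yet the adjusted p missed the threshold (log2 fold change 0.97, SE 0.29, adjusted p = 0.0658). With the replicate number as a block it passed (0.96, adjusted p = 0.0276). At day 15 the values were 14.5, 26.4 and 70.8 in sham mice and 38.0, 61.8 and 112 in ligated mice. These overlapped, with 2 of 6 ligated animals above the highest sham animal and 6 of 6 above the sham median (1.01, SE 0.33, adjusted p = 0.0757). Over both days Eif2ak1 rose by 0.99 on the log2 scale (SE 0.22, adjusted p = 0.00355).

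The day 15 value of Eif2ak1 passed without sham replicate 2 (1.36, adjusted p = 0.00981) and without ligated replicate 6 (1.13, adjusted p = 0.0426). Between groups, erythroid markers rose beside Eif2ak1 at day 8 and not at day 15. At day 8, 8 of 14 tested erythroid markers rose, with a median log2 fold change of 1.15, and their share ran from 7.76% to 16.2% of counts in ligated mice and from 5.71% to 8.20% in sham mice. At day 15 none of the 14 was called, their median was 0.05, and their share ran from 4.27% to 9.67% and from 5.89% to 12.6%, while the fold change of Eif2ak1 was 1.01. Within groups, ligated replicate 2 of day 8 had the highest erythroid share (16.2%) and the highest Eif2ak1 (139 normalised CPM). Sham replicate 2 of day 15 was also highest in its group for both (12.6% and 70.8). Ligated replicate 6 of day 15 had the highest erythroid share of its group (9.67%) but the lowest Eif2ak1 (38.0). In sham mice at day 8 different libraries were highest. The part of erythroid, neutrophil, monocyte or hepatocyte RNA in the values of Eif2ak1 and Eif5 was not tested.

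Of the eIF3 complex, the scaffold on which the small subunit assembles, 12 of 14 genes were tested and Eif3e alone was called. Eif3e encodes a subunit of its structural core (chromosome 15, 43250058 to 43282719, minus strand). At day 15 it stood at 92.7, 122 and 162 normalised CPM in sham mice and at 181, 217 and 254 in ligated mice (lowest, median, highest). Every ligated animal lay above every sham animal, which held for 2.38% of all genes in this direction at day 15. The log2 fold change was 0.79 (SE 0.20, adjusted p = 0.0160).

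At day 8 Eif3e ran from 76.5 to 162 normalised CPM in sham mice and from 91.1 to 201 in ligated mice, and these overlapped. The log2 fold change was 0.18 (SE 0.20, adjusted p = 0.734), and over both days it was 0.49 (SE 0.14, adjusted p = 0.0224). The ligation effect at day 15 minus that at day 8 was 0.61 (SE 0.28, adjusted p = 0.841), so a difference between the days was not shown. The day 15 call was lost with library totals (0.59, adjusted p = 0.0602) and with no filter (0.77, adjusted p = 0.0667). So was the call over both days (0.24, adjusted p = 0.207, and 0.45, adjusted p = 0.134).

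The other eIF3 genes spread around 0, from -0.33 (Eif3b) at day 8 and from -0.19 (Eif3l) at day 15. Next to Eif3e stood Eif3m at day 15, from 38.5 to 92.4 normalised CPM in sham mice and from 61.1 to 133 in ligated mice (log2 fold change 0.60, SE 0.22, adjusted p = 0.124). The median over the 12 genes was 0.03 at day 8 and 0.12 at day 15. Hepatocyte markers rose in the same ligated libraries, from at most 0.0182% of counts in sham mice to between 0.332% and 2.52% at day 15, and their part in the Eif3e values was not tested.

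None of the 9 tested cap-binding and helicase genes was called. They spread from -0.45 (Eif4a2) to 0.25 (Eif4e) at day 8, and from -0.78 (Eif4g3) to 0.82 (Eif4e2) at day 15. Eif4a2, a relative of the main helicase gene, ran from 114 to 134 normalised CPM in sham mice at day 8 and from 50.2 to 104 in ligated mice. The groups did not overlap, as for 0.340% of all genes in this direction, but the adjusted p was 0.377 (log2 fold change -0.45, SE 0.23).

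At day 15 Eif4g3, an eIF4G of lower level, ran from 30.8 to 51.3 normalised CPM in sham mice and from 14.4 to 36.3 in ligated mice (-0.78, SE 0.31, adjusted p = 0.147). Eif4e2, which binds the cap but represses translation, ran from 16.1 to 38.5 and from 34.4 to 54.5 (0.82, SE 0.31, adjusted p = 0.129). Both pairs of ranges overlapped. The 3 tested inhibitor and transporter genes, Eif4ebp1, Eif4ebp2 and Eif4enif1, ran from 0.03 to 0.20 at day 8 and from -0.31 to 0.12 at day 15. Eif6 stood at -0.22 and -0.03, with no call.

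In the elongation core Eef1g alone was called, and only over both days. Eef1g, whose protein holds eEF1B together (chromosome 19, 8967041 to 8978479, plus strand), ran at day 8 from 443 to 529 normalised CPM in sham mice and from 350 to 531 in ligated mice. At day 15 it ran from 403 to 612 in sham mice and from 301 to 488 in ligated mice. The groups overlapped at both days, and at day 15 all 6 ligated animals lay below the sham median of 556.

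The log2 fold change of Eef1g was -0.24 at day 8 (SE 0.15, adjusted p = 0.483) and -0.40 at day 15 (SE 0.15, adjusted p = 0.129). Over both days it fell by 0.32 on the log2 scale (SE 0.11, adjusted p = 0.0491). This call lay at the threshold: 17 of 24 refits without 1 library lost it (adjusted p from 0.0217 to 0.0906 over the 24), and so did the fit with no filter (-0.35, adjusted p = 0.205). The 17 were those without a sham library numbered 2 to 5 or a ligated library numbered 2 or 4 to 6 at day 8, and without a sham library numbered 3 to 6 or a ligated library numbered 1 to 5 at day 15. B cell markers, 6 genes all with counts, were lower in the same comparison: 3 of 3 tested fell, and the list held 0.0435% ± 0.0112 and 0.0232% ± 0.00307 of the counts in sham and ligated mice at day 8, and 0.0352% ± 0.0114 and 0.0169% ± 0.00776 at day 15 (SD, n = 6 each). Their part in the Eef1g and Eif4a3 values was not tested.

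Eef1d (chromosome 15, 75894205 to 75909556, minus strand) ran at day 15 from 106 to 127 normalised CPM in sham mice and from 61.1 to 105 in ligated mice. Every ligated animal lay below every sham animal, which held for 0.803% of all genes in this direction. The log2 fold change was -0.33 at day 15 (SE 0.18, adjusted p = 0.340) and -0.31 at day 8 (SE 0.18, adjusted p = 0.438), and over both days it was -0.32 (SE 0.13, adjusted p = 0.104). It passed over both days without ligated replicate 4 of day 8 (-0.39, adjusted p = 0.0469). With library totals it also passed over both days (-0.56, adjusted p = 0.00589), where 15.1% of all genes were called lower. The exchange subunit gene Eef1b2 stood at 0.07 at day 8 and 0.20 at day 15 (SE 0.16 each, adjusted p = 0.900 and 0.552).

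Eef1a1 ran at day 8 from 6683 to 8271 normalised CPM in sham mice and from 6237 to 9157 in ligated mice. At day 15 it ran from 6980 to 9000 and from 8463 to 9856. These ranges overlapped, with log2 fold changes of -0.03 (SE 0.11, adjusted p = 0.941) and 0.23 (SE 0.11, adjusted p = 0.272).

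Eef2 ran at day 8 from 2381 to 2841 normalised CPM in sham mice and from 2046 to 2598 in ligated mice, and at day 15 from 2097 to 2979 and from 2373 to 3109. It too overlapped at both days, at -0.16 (SE 0.12, adjusted p = 0.576) and 0.16 (SE 0.12, adjusted p = 0.517). With library totals in place of TMM, Eef2 fell by 0.48 and Eef1g by 0.57 on the log2 scale at day 8 (adjusted p = 0.0357 and 0.0431), beside the shift of -0.25 in all genes. At day 15 library totals put Eef1g at -0.61 (adjusted p = 0.0159), where 4.18% of all genes were called lower. Eif5a stood at 0.09 and 0.25 with no call.

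Eif4a3 bears an initiation name but encodes the helicase of the exon junction complex, which marks spliced mRNA (chromosome 11, 119288363 to 119300089, minus strand). At day 15 it stood at 34.7, 58.6 and 67.9 normalised CPM in sham mice and at 15.6, 27.6 and 52.2 in ligated mice (lowest, median, highest). Of the ligated animals 5 of 6 lay below the lowest sham animal. Eif4a3 fell by 0.92 on the log2 scale (SE 0.25, adjusted p = 0.0280).

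At day 8 Eif4a3 ran from 37.4 to 57.4 normalised CPM in sham mice and from 31.7 to 64.6 in ligated mice, and its log2 fold change stood at -0.05 (SE 0.23, adjusted p = 0.990). Over both days it was -0.48 (SE 0.17, adjusted p = 0.0679), and -0.49 with the replicate number as a block (adjusted p = 0.0479). The difference between days was -0.86 (SE 0.34, adjusted p = 0.774). The day 15 call was lost without sham replicate 3, 4 or 6 or ligated replicate 1, 2 or 5 (from -0.89 to -0.76, adjusted p from 0.0529 to 0.0971), with no filter (adjusted p = 0.105) and in the day 15 libraries alone (adjusted p = 0.0748). The gene had between 6 and 38 counts per library.

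No member differed between days by edgeR's test. Within ligated mice, day 15 against day 8, 0 of 44 members passed, with 6 under an unadjusted p of 0.05. Of all genes 4.35% were called there, and 17.2% had an unadjusted p under 0.05. The nearest to the threshold was Eif3e (log2 difference 0.57, SE 0.19, adjusted p = 0.0922). Eef1a1 and Eef2 both stood at 0.29 (SE 0.11 and 0.12, adjusted p = 0.157 and 0.174). DESeq2 called these 3 (0.63, 0.32 and 0.32, adjusted p = 0.0399, 0.0474 and 0.0358), where it called 3.92% of all genes.

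The median over the 5 elongation factors within ligated mice was 0.25 with 4 above 0, and over the 33 initiation factors 0.09 with 22 above 0. The ribosomal protein genes stood at 0.22 with 79 of 80 above 0 and 1 called, and all genes at -0.04. The gap between the classes is a description of medians and was not tested. Markers of other cells moved between the same groups. All 15 platelet markers tested lay below 0 (8 called lower, median -2.06), as did all 14 erythroid markers (4 called lower, median -0.80). All 16 hepatocyte markers tested rose (median 2.93). Such markers could pass the filter through the group where they were high, so these numbers are a description. The platelet share ran from 0.121% to 1.37% of the counts in ligated mice at day 8 and from 0.149% to 0.248% at day 15, and the part of these markers in the members' differences was not tested.

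Within sham mice 0 of 44 members passed by edgeR or DESeq2, and 0 had an unadjusted p under 0.05. Of all genes, 0% were called there by edgeR, DESeq2 called 1 higher and 4 lower, and 10.7% had an unadjusted p under 0.05. The 3 members of smallest p were Eif3i (0.45, adjusted p = 0.486), Eif4e2 (-0.48, adjusted p = 0.571) and Eif1 (-0.24, adjusted p = 0.593). For the ligation effect at day 15 minus day 8, 0 members passed by edgeR or DESeq2, with 3 under an unadjusted p of 0.05: Eif4a3, Eif3e and Eif4g3 (-0.89, SE 0.42, adjusted p = 0.841). Among all 4112 genes 0% passed by edgeR, DESeq2 called 1, and 234 (5.69%) had an unadjusted p under 0.05. The comparisons share their groups: each ligation effect enters the mean and the difference.

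Other genes of the translation pathway were read against the same backgrounds. Of all genes 10.6% were called over both days, 3.14% at day 8 and 4.35% within ligated mice, day 15 against day 8. Of 8 tested control genes, Ppp1r15a, the phosphatase subunit that reverses eIF2 phosphorylation, rose by 1.85 at day 8 (SE 0.47, adjusted p = 0.0267) and by 1.59 over both days (SE 0.33, adjusted p = 0.00168) on the log2 scale. Its day 8 call was lost without sham replicate 2, 4 or 5 or ligated replicate 1, 2 or 3 of day 8 (adjusted p up to 0.0850), with library totals (1.53, adjusted p = 0.0559), in the fit of the day 8 groups alone (1.83, adjusted p = 0.0516) and in the deeper libraries numbered 4 to 6 (1.03, adjusted p = 0.250). The eIF2 response factor gene Atf4 stood at 0.10 at day 8 and -0.28 at day 15, with no call. Tpt1, which encodes a growth-linked protein with an oligopyrimidine mRNA, rose by 0.41 over both days (SE 0.10, adjusted p = 0.0117), a call lost with library totals (0.15, adjusted p = 0.333) and with no filter (0.38, adjusted p = 0.0834).

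Of 4 tested termination and recycling genes, Etf1, the factor that reads stop codons, rose by 0.57 over both days (SE 0.16, adjusted p = 0.0190), a call lost with library totals (0.32, adjusted p = 0.168) and with no filter (0.54, adjusted p = 0.0941). None of the 4 was called at a single day. Of 8 poly(A)-binding protein genes and partners, none changed with ligation, and Paip2b, an inhibitor of that protein, rose by 1.57 from day 8 to day 15 in ligated mice (SE 0.29, adjusted p = 0.00214). Platelet, erythroid and hepatocyte markers moved between the same groups, and their part in the Paip2b value was not tested. None of the 14 tested cytosolic aminoacyl-tRNA synthetase genes was called in these comparisons, with medians of -0.15 at day 8 and 0.06 at day 15. Tufm, the mitochondrial counterpart of eEF1A, was the 1 of 9 mitochondrial factors tested, at 0.26 and -0.48.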

How the data were processed

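RNA of plasma extracellular vesicles was measured in 24 libraries, 1 per mouse, 6 per group, grouped by the sample titles. The protocol text mentions ligation for sham animals too, whereas titles and treatment labels keep the 2 operations apart. The deposited values are expected counts per gene, all of them whole. STAR and RSEM were used by the authors, per the submitters' processing notes; no source used here states which versions. These notes also name hg38, a human build, although the genes carry mouse Ensembl identifiers, and which build the reads were aligned to was not established. Coordinates come from GENCODE M21 (GRCm38) by identifier. No source used here states how reads of near-identical genes, or of opposite strands, were assigned.

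Genes of low count were removed with filterByExpr at a minimum count of 10 and a total of at least 15, leaving 4112. After TMM normalisation, edgeR 4.0.16 (R 4.3.3) fitted 1 mean per group to all 24 libraries, and its quasi-likelihood test gave p-values that were adjusted by Benjamini-Hochberg over all genes tested, with a threshold of 0.05; the script was tested on simulated data. SE is the standard error of the log2 fold change. Reads carry no molecular identifiers. Alternatives were other scalings, no filter, DESeq2 1.42.0, the contrast's groups alone, a replicate block, subsets of the day 8 libraries and leaving out each library. No libraries of a group agreed within sampling noise (lowest chi-square per degree of freedom 1.66 over 60 pairs).

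The members and gene lists were chosen with earlier results of these data known. Named were the members called in any comparison, the 3 of smallest p in each, the most abundant initiation and elongation factors and a set chosen by role; members not tested are given by their counts. Mice are numbered 1 to 6 within each group by the titles. Between ligated and sham libraries of the same number, deviations from their group's mean correlated by 0.165 to 0.327 at day 8 and by -0.031 to 0.113 at day 15. At day 8 the best match of a ligated library was its own number for 2, 3 and 4 and not for 1, 5 and 6. At day 15 it was so for number 1 alone. At day 8 the numbers 1 to 3 and 4 to 6 also differed in depth and platelet share in both groups. Pairing by number was therefore not established, and the main test used no replicate block.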

Additional observations from a re-analysis of the deposited data

Results flagged for a closer look

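In 68 groups of 6 libraries, covering the most described members and the class shares, 4 held a value far from the other 5 by Dixon's test; chance alone gives such a value in about 1 group in 20. In ligated mice at day 8, replicate 2 had 139 normalised CPM of Eif2ak1, with the next at 91.0. In sham mice at day 8, replicate 3 had 2841 normalised CPM of Eef2, with the next at 2520. In sham mice at day 15, replicate 1 had 257 normalised CPM of Eef1b2, with the next at 372. In ligated mice at day 8, replicate 3 gave 0.228% of its counts to the 43 initiation factors, with the next at 0.331%. The same library had the lowest Lars2 share of its group (31.6%) and the highest hepatocyte marker share (0.439%).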

How the results depend on the processing

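Beside 1 member called at day 8, library totals gave 2 (Eef1g and Eef2, both lower); the contrast's groups alone and DESeq2 gave 2 each (Eif5 and Eif2ak1), replicates 1 to 3 alone 0, replicates 4 to 6 alone 0, and refits without 1 library 0 to 1. With the replicate block the count at day 8 was 2. The block also called Eif2ak1 at day 15 (1.00, adjusted p = 0.0497), where libraries of the same number correlated by at most 0.113. It changed no other member's call beyond that of Eif4a3 over both days. At day 15 no filter left 1 call in place of 3, and over both days library totals gave 10 in place of 4 (2 higher, 8 lower). Within ligated mice DESeq2 gave 3 in place of 0. Of all genes at day 8, where 114 were higher and 15 lower, library totals called 56 and 77, the block 169 and 33, the groups alone 74 and 9 of 3690, DESeq2 162 and 24, replicates 1 to 3 alone 72 and 4 of 2010 and replicates 4 to 6 alone 24 and 5 of 3977. At day 15 no filter called 166 and 107 of the same 4112 genes in place of 143 and 44. Over both days library totals called 185 and 621 in place of 292 and 144, and within ligated mice DESeq2 85 and 76 in place of 93 and 86. Without Lars2 and the hemoglobin genes, elongation factors held 2.40% and initiation factors 0.812% of the counts, where 1.07% and 0.362% were the values over all counts. The elongation to initiation ratio per kilobase was 3.20 with the longest coding transcript and 4.12 with exon lengths.

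Uncalled values changed sign as follows. With library totals Eif3e stood at -0.11 at day 8, Eef1b2 at -0.26 at day 8 and Eef2 at -0.052 at day 15. In replicates 4 to 6 of day 8, Eif3e stood at -0.077, Eef1b2 at -0.16 and Eif4a3 at 0.029. Leaving out 1 library, the day 8 values ran from -0.13 to 0.0093 for Eif4a3, from -0.10 to 0.013 for Eef1a1 and from -0.018 to 0.15 for Eef1b2. The cause of these changes was not tested. With 101733 counts in the shallowest library, members of few counts could not be tested.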

Other observations

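The spread of a member over the 24 libraries was compared with the spread that counting alone would give, as a description with no test. Eif5 had a coefficient of variation of 45.1% in normalised CPM, where counting gives 13.7%, and Eif2ak1 one of 51.9% against 25.0%. Eef1a1 varied by 12.4% against 2.17%, Eef2 by 11.5% against 3.85% and Eef1g by 17.8% against 9.06%. Little spread beyond counting was seen in the initiation factors Eif3h (12.4% against 12.2%) and Eif3k (18.6% against 17.6%) and in the elongation factor Eef1d (20.5% against 19.7%). Other initiation factors spread more than counting gives: Eif4g2 by 12.2% against 9.22%, Eif3f by 22.2% against 11.4% and Eif3e by 31.4% against 15.6%. Eif1b varied by 60.6% against 40.7%, and it had 196 counts in all.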
